A study of Mus musculus with 4 samples.

Results

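Deletion of Rbpj in cultured mouse fibroblasts was read from 1 pair of arrays: the array labelled Adeno Cre in vitro, called the deleted array here, and the array labelled Adeno GFP in vitro, the control array. These are 2 of the 4 arrays of the series. The other pair, which serves here only as a comparison, holds fibroblasts of ColI Cre x RBP loxp-loxp mice and of RBP loxp-loxp mice. Every array is labelled as fibroblasts on a C57BL/6 background, and the title of the series calls the cells dermal. Adeno Cre names an adenovirus that carries the Cre recombinase, which cuts out DNA between loxP sites, and Adeno GFP names the same kind of virus with a fluorescent protein, so both in vitro cultures met a virus and only the deleted culture met Cre. Whether the cultured cells carried the floxed gene, how many animals they came from, and how long after infection RNA was taken are not given in the sources used here. With 1 array a side there is no replicate, and no difference below has a replicate check or a p-value. The number of arrays limits the precision, and fewer cells of a type cannot be told apart from less RNA per cell.

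Rbpj encodes CSL, also called RBP-J kappa, the DNA-binding protein of the Notch pathway. A Notch receptor that meets a Delta or Jagged ligand on a neighbouring cell is cut first by an ADAM protease and then by gamma-secretase, and the freed intracellular part joins CSL and Mastermind on DNA. Without that part, CSL sits with corepressors, so that loss of CSL can both remove activation and release repression. Genes of the Hes and Hey families are the best known targets, and in skin fibroblasts CSL is known as a brake on the activation of the dermal stroma.

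Each probe set, a group of short probes for 1 transcript, has a log2 signal per array, and a difference is the deleted minus the control signal. Of 34945 probe sets of a single gene, 13978 had a mean signal over both in vitro arrays of at least 6.11, the 60th percentile, and stood for 8878 of 18193 genes. The value of a gene is the median difference over its probe sets above that level. For the 3415 genes with 2 or more such probe sets, the probe sets were said to agree where every one lay at least 1.5-fold, or 0.585 on the log2 scale, to the same side. The 2 arrays correlated at r = 0.9826 over probe sets. The gene differences had a median of -0.056 and an SD over genes of 0.4405, and all but the outermost 5% at either end fell between -0.75 and 0.67.

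Rbpj itself was lower in the deleted array by 2 of its 3 probe sets. Probe set 1454896_at read 8.63 in the control and 7.29 in the deleted array, a difference of -1.34, or 2.53-fold lower. Probe set 1448957_at read 8.58 and 7.48, a difference of -1.11, or 2.15-fold lower. Both differences lie far out among all probe sets above the level filter, of which 0.193% and 0.723% were as low or lower. The remaining probe set, 1418114_at, was the dimmest of them and did not follow, with 6.31 in the control and 6.40 in the deleted array, a difference of 0.10. The mean over the 3 probe sets was -0.78 with an SD of 0.77, so the transcript was lower but still well above the level filter by the brighter pair. Which of these probe sets lie in the part removed by Cre is not given in the sources used here, so an unchanged probe set checks nothing by itself. In the in vivo pair the same probe sets, in the order just given, differed by -0.83, -0.10 and -0.49.

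**Figure D1:**
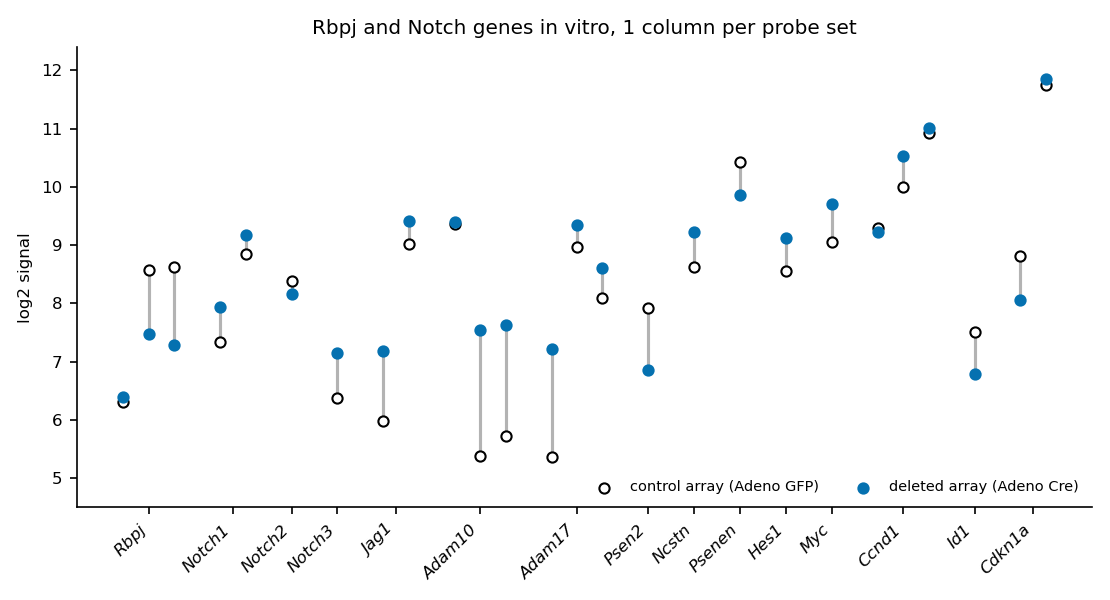
Log2 signal in the control array (open circles) and the deleted array (filled circles) for each probe set above the level filter of Rbpj and of Notch pathway genes, with a grey line joining the pair. Rbpj is lower at 2 of 3 probe sets, while Adam10 shows 1 probe set without a difference and 2 that are higher by 1.90 and 2.15.

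The 2 arrays differed in a measure of RNA integrity, the gap between the ends of a transcript, for 3 of 4 control transcripts in one direction and for 1 in the other. For Gapdh the probe set at the 3' end of the transcript exceeded that at the 5' end by 1.0 in the control array and by 0.019 in the deleted array, and those of Actb by 1.11 and 0.396. For Pcx the 3' end was 3.16 above the 5' end in the control and 2.01 in the deleted array. The gap was thus wider in the control array for those 3 transcripts, whereas Tfrc ran the other way with 0.962 and 1.45. Gene differences also followed the span of the gene in the genome. Their median was -0.258 in the shortest of 4 equal classes of span and 0.067 in the longest, with Spearman's rho of 0.309 across 8865 genes, which share the same 2 arrays and are not independent. The corresponding rho in the in vivo pair was -0.033. The part of RNA integrity in any single difference was not tested, and spans are given beside the groups they touch.

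**Figure D2:**
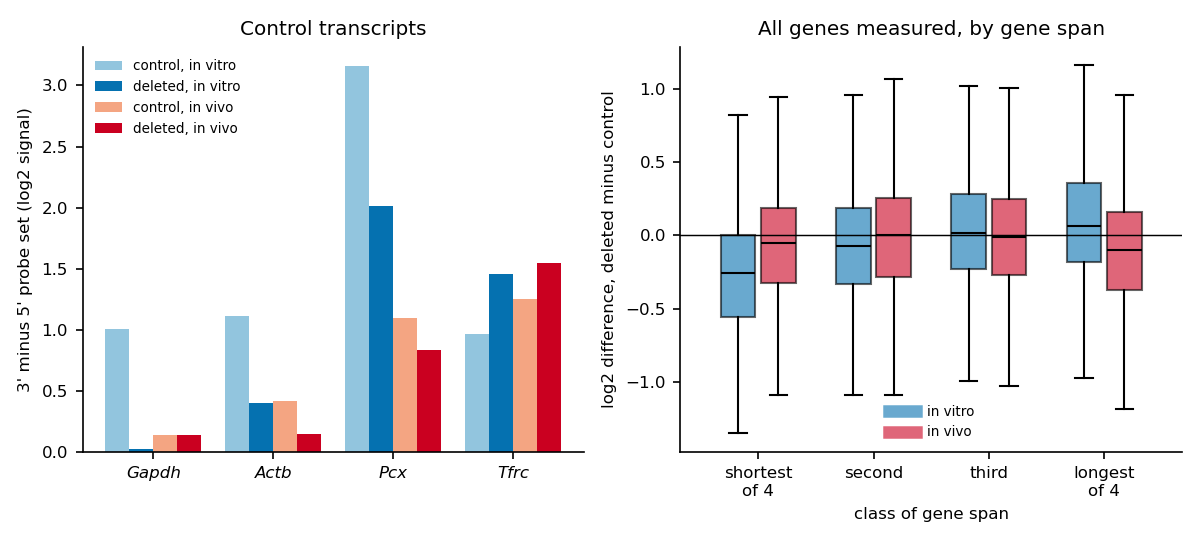
Left, the log2 signal of the 3' probe set minus that of the 5' probe set for 4 control transcripts on each array. Right, boxes of the gene differences by class of gene span (line, median; box, interquartile range; whiskers, to the last gene within 1.5 box lengths), where the in vitro medians run from -0.258 in the shortest to 0.067 in the longest class.

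At a 2-fold difference, 139 of the 8878 genes (1.57%) were higher and 106 (1.19%) lower in the deleted array. Of these genes, 118 had 2 or more probe sets above the level filter, and in 110 of the 118 every probe set had the same sign. By the stricter rule of agreement, 81 of 3415 genes (2.37%) were higher and 108 (3.16%) lower. The higher set had a median span of 37674 bases and the lower set of 7563 bases. It was 28781 bases for all genes with several probe sets and 24666 for all genes measured. The split depended on the setting. With the brightest probe set of each gene in place of the median, 75 genes were 2-fold higher and 125 lower. Without probe sets ending in _x_at or _s_at 84 genes agreed on the higher and 41 on the lower side. That setting kept 72 of the 81 higher and 37 of the 108 lower genes. Also, 74 of the 108 lower genes lay in the shortest of the 4 span classes, which held 668 of the 3415 genes with several probe sets. With the trend on span removed 86 genes were higher and 45 lower. With the differences centred on their median, 92 were higher and 87 lower. At the edge of the rule, Mef2a (weakest probe set 0.585) and Sem1 (-0.586) lay just inside, and Vps35 (0.584) and Mrpl28 (-0.584) just outside.

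The most uniform difference among the higher genes was that of Mmp19, a matrix metalloproteinase. Its 2 probe sets read 6.01 and 5.84 in the control array and 7.18 and 7.0 in the deleted array, differences of 1.17 and 1.16. Mmp19 spans 9918 bases and lies in the shortest class of span, where the median gene difference was -0.258. That class held 8 genes with agreeing probe sets on the higher side, Mmp19 among them, and 74 on the lower side. The part of gene span or RNA integrity in the Mmp19 difference was not tested. Tmod3, a tropomodulin that caps the slow end of actin filaments, headed the ranking by weakest probe set. Its 3 probe sets above the filter moved from 7.79 to 9.08, from 6.01 to 7.28 and from 6.57 to 8.02, all between 1.27 and 1.45 higher.

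Thbs1 encodes thrombospondin 1, a matricellular protein and an activator of latent TGF-beta. One probe set read 9.99 in the control and 12.36 in the deleted array, and the other 11.88 and 12.93, so both were higher but by unequal amounts of 2.37 and 1.05. Plagl1, an imprinted zinc finger transcription factor, showed the same inequality, from 10.93 to 11.88 at the bright probe set and from 5.49 to 8.30 at the dim one. Fermt2, the integrin-activating adaptor kindlin 2, moved from 10.30 to 11.16 and from 8.19 to 10.06. Ncoa4, the cargo receptor for ferritin breakdown, moved from 8.41 to 9.33 and from 6.79 to 9.13. In each of these genes the dimmer probe set gave the larger difference. At that probe set the in vivo control and deleted arrays read 11.35 and 11.18 for Thbs1 and 7.47 and 5.91 for Plagl1. They read 9.12 and 9.65 for Fermt2 and 7.85 and 8.11 for Ncoa4. The in vitro control array was thus the lowest of the 4 arrays at each of these dim probe sets. The part of RNA integrity in this was not tested. Ranked by signal on the in vivo arrays, the dimmest probe set had the larger difference in 61 of the 81 higher genes, in 52 of the 108 lower genes, and in 1999 of the 3415 genes with several probe sets. Probe sets of the higher genes also spread more widely, with a median range of 0.606 within a gene and a range over 1 in 24 of 81. In the lower genes the median range was 0.146 and no range exceeded 1.

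The other leading higher genes span unrelated roles. Zfp207, a spindle assembly factor that binds kinetochores, moved from 8.72 to 9.82 and from 5.87 to 7.95. Snap23, a SNARE protein of the plasma membrane, moved from 6.57 to 7.72 and from 6.48 to 7.47. All 4 probe sets of Serinc1, a multispan membrane protein, were higher, by 0.88 to 2.20. Gene values of others of the leading 15 were 1.40 for Dcun1d1, a cofactor for joining NEDD8 to cullins, 1.09 for Ranbp9, a scaffold of an E3 ligase complex, and 1.02 for the cochaperone gene Dnajb4. They were 1.20 for Plekha3, a lipid-binding protein of the Golgi, and 1.66 for Hsd17b12, an enzyme of fatty acid elongation. The weakest single probe set among the leading 15 was that of Hsd17b12, at 0.85. Its other probe set read 7.19 in the control and 9.67 in the deleted array, against 9.48 and 9.64 in vivo.

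**Figure D3:**
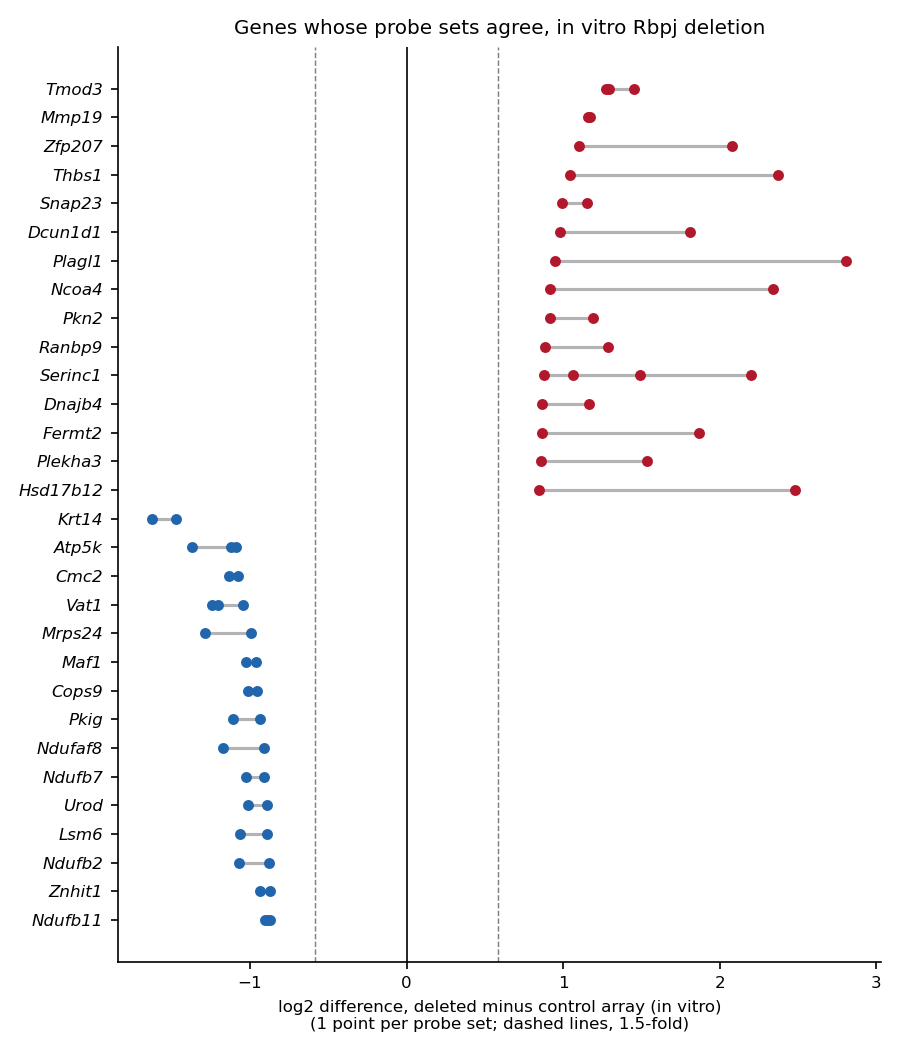
Log2 difference (deleted minus control) at each probe set above the level filter for the 15 higher and 15 lower genes with the largest weakest difference, 1 point per probe set, with dashed lines at 1.5-fold. The points of the lower genes lie close together, whereas those of Plagl1 run from 0.95 to 2.81. Most of the lower genes include a probe set ending in _x_at or _s_at, as do Dcun1d1, Plagl1 and Ranbp9 among the higher.

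Among the lower genes Krt14, a keratin of basal epidermal cells, was the most different by its weakest probe set. It read 8.43 and 7.09 in the control array and 6.80 and 5.62 in the deleted array, differences of -1.62 and -1.47. Krt14 is a marker of keratinocytes and not of fibroblasts, and it is described with the other keratinocyte markers further on. The next places went to genes of other compartments. Atp5k, a subunit of the mitochondrial ATP synthase, moved from 11.60 to 10.48, from 9.85 to 8.48 and from 11.46 to 10.37. Cmc2, which acts in the assembly of cytochrome c oxidase, moved from 7.72 to 6.64 and from 8.32 to 7.18, and the mitochondrial ribosomal protein gene Mrps24 from 9.09 to 8.09 and from 9.50 to 8.21. Differences within a gene ran from -1.09 to -1.37 for Atp5k, from -1.08 to -1.13 for Cmc2 and from -0.99 to -1.28 for Mrps24. Both probe sets of Mrps24 end in _s_at. A probe set of Cmc2 also ends in _s_at, and probe sets of Krt14 and Atp5k end in _x_at. With such probe sets left out, 37 of the 108 lower genes were kept.

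Vat1, a membrane protein of vesicles and mitochondria, was lower at 3 probe sets, by -1.20, -1.24 and -1.04. Pkig, an inhibitor of protein kinase A, moved from 8.47 to 7.54 and from 7.87 to 6.76, and it is one of 4 lower genes, with Mrpl48, Acbd6 and Iffo2, whose span lies in the longest class. Maf1, the repressor of RNA polymerase III, had a gene value of -0.99, Cops9, a subunit of the COP9 signalosome, -0.98, and Urod, an enzyme of heme synthesis, -0.95. Lsm6, a component of RNA decay and splicing complexes, had -0.97 and Znhit1, a subunit of a histone exchange complex, -0.91. The remaining places in the leading 15 went to 4 genes of respiratory complex I or its assembly: Ndufaf8 at -1.04, Ndufb7 at -0.97, Ndufb2 at -0.97 and Ndufb11 at -0.89. Probe sets ending in _x_at are among those of Vat1, Cops9, Urod, Ndufb2 and Ndufb11. Probe sets ending in _s_at are among those of Pkig, Maf1 and Lsm6.

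Genes read by a single probe set above the filter carry less weight here. The largest such difference on the higher side was in ND5, a complex I subunit encoded in mitochondrial DNA, which read 10.17 in the control and 12.41 in the deleted array. It was followed by Sp3, a GC-box transcription factor (7.10 to 9.07), Cnnm4, a magnesium transporter (5.61 to 7.50), the Rag GTPase gene Rraga (6.92 to 8.81) and the chromatin remodeller gene Chd1 (6.19 to 8.0). On the lower side stood Snord104, a small nucleolar RNA (7.43 to 5.75), the noncoding Hoxd3os1 (7.35 to 5.81), Dnajc17, a J-domain protein (7.90 to 6.42), Tmem256 (10.84 to 9.48) and Serpina10, a serpin (6.97 to 5.63). ND5 lay in the direction opposite to the nuclear genes of the same complex. In vivo, ND5 read 12.23 in the control and 12.36 in the deleted array, Sp3 7.71 and 7.65, and Cnnm4 6.58 and 7.09. Rraga read 8.63 and 8.66 there, and Chd1 7.77 and 8.49. For each of these 5 genes the in vitro control array was thus the lowest of the 4 arrays. The part of RNA integrity in these differences was not tested.

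The letters that CSL prefers, GTGGGAA on either strand, were searched in RefSeq promoters (GRCm38.p6), from 250 bases before to 50 bases after each start site. They stood in 6.38% of all 32851 promoters and in 5.65% of the 9337 promoters of measured genes. Among genes with agreeing probe sets they stood in 4 of 91 promoters (4.40%) on the higher side and in 10 of 128 (7.81%) on the lower side. The 10 on the lower side include those of Atp5k, Ndufb2 and Pacsin3. The 4 on the higher side are printed as examples, although their share was below that of measured genes and the lower side had more matches. A match only describes the letters. Each stretch is printed along the strand of its gene, 5′ to 3′, with the matching letters in capitals, and GTGGGAA on the opposite strand reads TTCCCAC.
Bzw1, chr1:58392839-58392897, plus strand, 29 bases before the start site: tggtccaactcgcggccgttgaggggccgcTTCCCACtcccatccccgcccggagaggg
Clip3, chr7:30291451-30291517, plus strand, 214 bases before: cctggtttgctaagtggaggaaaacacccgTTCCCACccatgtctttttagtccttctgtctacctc
Col4a5, chrX:141475307-141475373, plus strand, 82 bases before: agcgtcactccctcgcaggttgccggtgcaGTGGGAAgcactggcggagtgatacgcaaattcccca
Cyp1b1, chr17:79715187-79715253, minus strand, 162 bases before: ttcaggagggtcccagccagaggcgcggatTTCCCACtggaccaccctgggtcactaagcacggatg
The gene values were 0.92 for Bzw1, a regulator of translation start, 0.89 for Clip3, a microtubule-binding protein, 1.13 for Col4a5, a basement membrane collagen chain, and 1.12 for Cyp1b1, a steroid- and xenobiotic-metabolising cytochrome P450.

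Receptors, ligands and processing enzymes of the Notch pathway showed no common direction. Of 29 genes listed, 22 were measured, 11 with a value above 0 and 11 below, against 44% of all genes above 0 and 55.9% below. The list median was -0.10, and it became 0.10 with a level filter at the 40th percentile, 0.06 without one and 0.04 with the span trend removed. At 1.5-fold, which 7.29% of all genes reached on the higher and 10.4% on the lower side, 4 members were higher and 1 was lower, and none of the 9 with several probe sets had them agree. The receptor gene Notch1 read 7.33 and 8.84 in the control and 7.94 and 9.17 in the deleted array. Notch2 read 8.39 and 8.16. Notch3 read 6.38 and 7.15 at the probe set above the filter and 5.93 and 5.98 at the one below it. Notch1 was thus higher at both probe sets but past 1.5-fold at 1 of them, Notch2 was slightly lower, and Notch3 was higher at only 1 of 2.

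The ligand gene Jag1 was higher at both probe sets, by 1.20 at the dim one (5.98 to 7.18) and by 0.39 at the bright one (9.03 to 9.41). Adam10, which makes the first cut in the receptor, had its bright probe set at 9.36 and 9.39 while 2 dim ones went from 5.39 to 7.54 and from 5.73 to 7.64. Adam17, a related protease, showed the same layout, with 5.36 and 7.22 at the dim probe set, 8.98 and 9.35 at the bright one, and 8.10 and 8.61 at the middle one. For both proteases the size of the difference therefore depended on the probe set. Of the gamma-secretase subunits, Psen2 was lower (7.92 to 6.86) and so, under the 1.5-fold size, was Psenen (10.43 to 9.87), while Ncstn was higher (8.62 to 9.23). Dll1, Dll4, Jag2, Lfng, Mfng and Notch4 stayed under the level filter on their 11 probe sets, with signals of at most 5.95 in the control and 5.64 in the deleted array.

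Many known Notch and CSL target genes were too dim to read. Of 20 listed, 10 lay under the filter: Bcl2, Dll4, Dtx1, Gucy1a1, Hes5, Hes7, Hey1, Hey2, Heyl and Nrarp, with signals up to 5.93 on either array. Of the 10 measured, 6 had values above 0 and 4 below, 3 reached 1.5-fold on the higher side and 1 on the lower, and the median was 0.13. The 3 were Jag1, Notch3 and Myc. Jag1 and Notch3 also belong to the list of receptors and ligands and are among its 4 higher members. Hes1, the repressor most widely used as a readout of Notch, read 8.55 in the control and 9.12 in the deleted array, just short of 1.5-fold. Myc, the growth regulator, read 9.05 and 9.70, and Id1, an inhibitor of basic helix-loop-helix factors, 7.51 and 6.80. Cdkn1a, which encodes the cyclin-dependent kinase inhibitor p21, had probe sets that disagreed, with 8.82 and 8.07 at one and 11.75 and 11.85 at the other. No known target with several probe sets (4 genes) had them agree. Of the CSL coactivators and corepressors, 21 of 27 were measured and 1 passed 1.5-fold, the LIM-domain cofactor gene Fhl1 at 8.89 and 9.62.

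**Figure D4:**
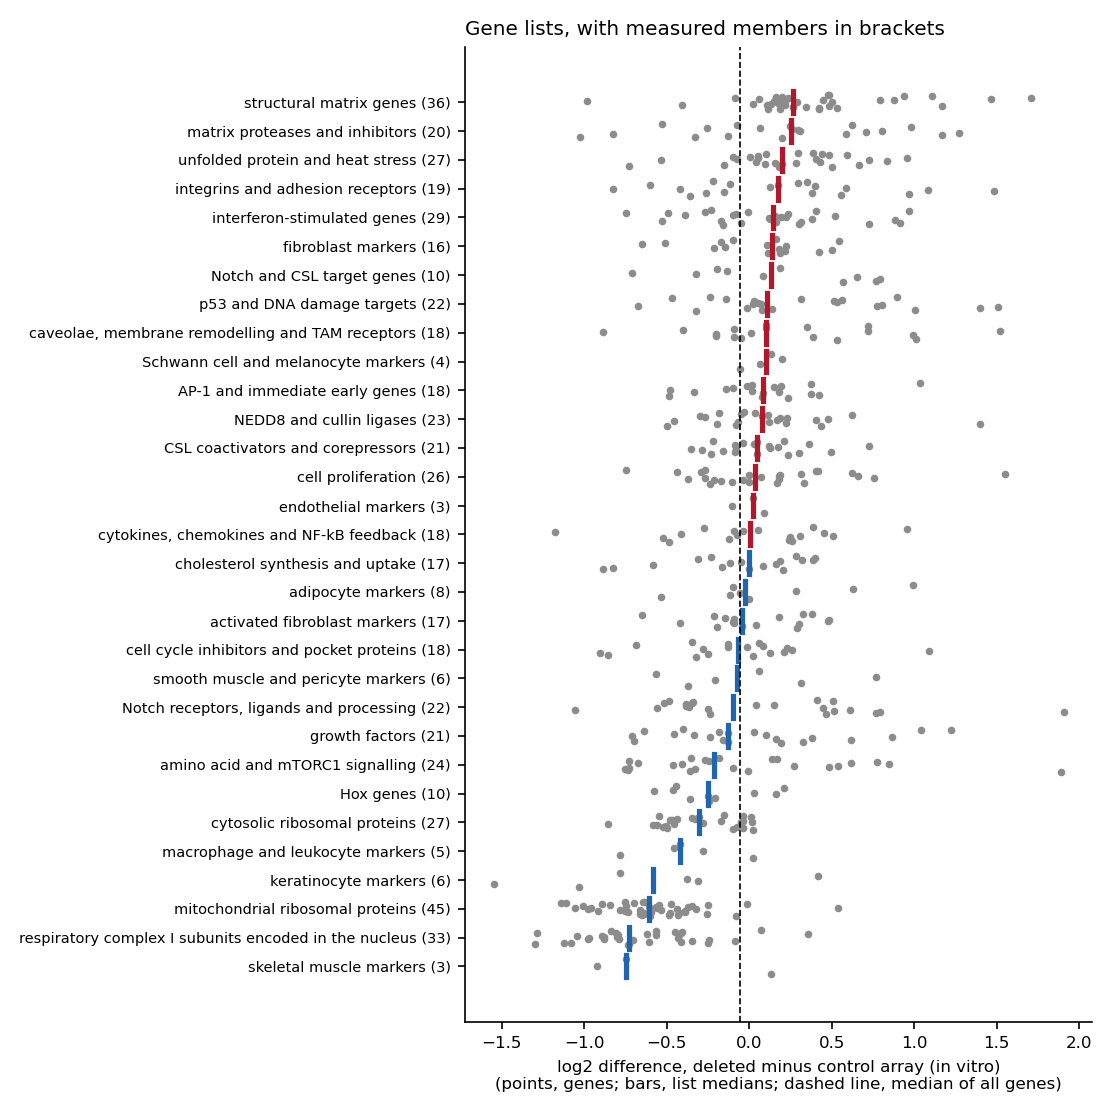
Log2 difference (deleted minus control) of each measured gene (points) in 31 gene lists, ordered by list median (bars), with the median of all 8878 genes as a dashed line. Structural matrix genes head the order with a median of 0.27, and nuclear complex I genes and mitochondrial ribosomal protein genes lie near its foot with medians of -0.73 and -0.61.

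Genes for the structural matrix, the fibres and glycoproteins that fibroblasts secrete, leaned higher. Over all genes 44% had values above 0, 7.29% were at least 1.5-fold higher and 10.4% lower, and these shares apply to each list below. Of 36 measured, 33 had values above 0, 7 were at least 1.5-fold higher and 1 lower, and 3 of the 26 with several probe sets had them agree on the higher side: Thbs1, Lox and Col12a1. The median was 0.27, and it stayed between 0.24 and 0.31 under every alternative run; the median span of the list was 38416 bases. Lox, the enzyme that crosslinks collagen and elastin, read 12.09 and 10.09 in the control and 12.77 and 12.34 in the deleted array. Col12a1, a fibril-associated collagen, read 9.91 and 10.74 against 11.50 and 11.48. Nid1, a basement membrane linker, was higher by 0.40 and 1.82. The difference was again larger at the dimmer probe sets of these genes. There the in vivo control and deleted arrays read 11.92 and 11.71 for Lox, 10.78 and 10.74 for Col12a1, and 8.64 and 8.65 for Nid1. Fmod, a small proteoglycan of collagen fibrils, was the 1 lower member at -0.98.

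Matrix proteases and their inhibitors went both ways. Of 20 measured, 7 were at least 1.5-fold higher and 2 lower, with a median of 0.25. Besides Mmp19, Timp3, a matrix-bound protease inhibitor, was higher at all 4 probe sets, but by amounts from 0.24 to 2.35. Adam12, a membrane protease of activated mesenchyme, read 6.25 and 8.63 at one probe set and 9.59 and 9.75 at the other. The former read 9.02 in the control and 8.99 in the deleted array in vivo. Mmp3, stromelysin, was lower, at 8.34 and 7.32 on its single probe set. Integrins and adhesion receptors gave 4 of 19 higher and 2 lower: Itgb1, the common beta subunit, was higher by 1.09, 0.53 and 1.31, while Itgav was higher by 2.67 at its dim and 0.30 at its bright probe set. Markers of activated fibroblasts showed no such lean, with 8 of 17 above 0, none at least 1.5-fold higher, and a median of -0.04 that became 0.12 with the span trend removed. S100a4, a calcium-binding protein of motile mesenchyme, was the member furthest below 0, at 12.50 and 11.85.

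Secreted growth factors split, with 4 of 21 at least 1.5-fold higher and 3 lower, and a median of -0.13 that became 0.12 under a level filter at the 75th percentile, 0.07 with the brightest probe set of each gene and 0.04 with the span trend removed. Kitl, the ligand of the Kit receptor on melanocytes and mast cells, had agreeing probe sets, from 9.10 to 9.70 and from 6.39 to 8.23. Csf1, the macrophage growth factor, was higher at all 4 probe sets, by 1.45, 1.31, 0.77 and 0.45, and Vegfa at both, by 0.44 and 1.29. Vegfd was lower at -0.71 by its median probe set and 0.21 at its brightest. Cytokines, chemokines and NF-kB feedback genes had 1 of 18 higher (Tnfaip3, 6.32 to 7.28) and 1 lower (Saa3, 8.36 to 7.18), and 11 of the 30 listed, Il6 and Il1b among them, were under the filter. AP-1 and immediate early genes had 1 of 18 higher, Klf10 (6.19 to 7.22), and interferon-stimulated genes 4 of 29 higher and 1 lower.

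Targets of p53, the DNA damage response factor, held 6 of 22 genes at least 1.5-fold higher and 1 lower, with a median of 0.11. Over all genes 7.29% were at least 1.5-fold higher and 10.4% lower. Mdm2, the E3 ligase that p53 induces and that degrades it, had agreeing probe sets, from 9.70 to 10.33 and from 7.85 to 9.23. Ccng1, cyclin G1, was higher by 1.51 and 1.53 at 2 probe sets and by 0.30 at the brightest. Pmaip1, the cell death gene Noxa, read 6.52 and 7.92. Cdkn1a, also a p53 target, did not join them at either probe set. It was lower at the dim one (8.82 to 8.07) and nearly level at the bright one (11.75 to 11.85). Cell cycle inhibitors and pocket proteins had 1 of 18 higher and 3 lower: Cdkn2d read 7.72 and 6.81 and Cdkn1c 9.27 and 8.42. Ccnd2 was lower at -0.69 by the median of 6 probe sets but 0.047 at the brightest. Rbl1 was higher at 1.09 on the probe set above the filter but -0.016 with all its probe sets. In the proliferation list 4 of 26 were at least 1.5-fold higher and 1 was lower, with a median of 0.03, and 3 of the 13 with several probe sets had them agree on the higher side. These were the ribonucleotide reductase genes Rrm1 (0.66 and 2.44) and Rrm2 (0.62 to 1.46 over 3 probe sets), which make the building blocks of DNA, and the replication helicase gene Mcm4 (0.61 and 0.70).

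Among the 31 lists, 2 lists of mitochondrial proteins leaned lower in nearly every member. Nuclear genes for subunits of respiratory complex I, the entry point of the respiratory chain, were below 0 in 31 of 33, and 20 were at least 1.5-fold lower while none was higher. Over all genes 55.9% were below 0 and 10.4% at least 1.5-fold lower. In 9 of the 17 with several probe sets these agreed on the lower side, where 3.16% of all genes with several probe sets did. The list median was -0.73. Ndufb11 read 10.95, 10.72 and 10.86 in the control array and 10.08, 9.81 and 9.98 in the deleted array, and Ndufa5 read 9.82 and 9.23 against 8.45 and 8.36. Mitochondrial ribosomal protein genes were below 0 in 44 of 45, 25 of them at least 1.5-fold lower, with a median of -0.61. Cytosolic ribosomal protein genes were below 0 in 24 of 27, but 1 passed 1.5-fold, Rpl37 at -0.85, and the median was -0.30.

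These are also lists of short genes. The median span was 7798 bases for complex I, 5972 for the mitochondrial and 3807 for the cytosolic ribosomal proteins, against 24666 for all genes. With the trend on span removed, the medians were -0.51 for complex I and -0.37 for the mitochondrial ribosomal proteins, still lower, and -0.0075 for the cytosolic ribosomal proteins. Over the other alternatives complex I stayed between -0.74 and -0.66 and the mitochondrial ribosomal proteins between -0.63 and -0.55. In the in vivo pair the same complex I genes had a median of -0.08 and the mitochondrial ribosomal proteins of 0.08. The part of RNA integrity in these list medians was not tested.

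Further lists held single genes of note among mixed values. The shares of all genes at least 1.5-fold higher and lower were 7.29% and 10.4%. In the list of caveolae, membrane remodelling and TAM receptors, 5 of 18 were at least 1.5-fold higher and 1 lower: the receptor kinase gene Axl read 9.83 and 11.35, and the caveolin gene Cav2 9.40 and 10.41, each on 1 probe set. Ehd2, an ATPase at the neck of caveolae, was higher at all 4 probe sets, by 0.39 to 2.41. Pacsin3, a membrane-bending protein, had agreeing probe sets on the lower side, with a gene value of -0.89. In amino acid and mTORC1 signalling, 4 of 24 were higher, led by Rraga, and 5 lower, with Lamtor4 at 9.16 and 8.41. Cholesterol genes had none of 17 higher and 2 lower, and Mvd, an enzyme of the mevalonate pathway, had agreeing probe sets (7.75 to 7.02 and 8.53 to 7.60). Unfolded protein and heat stress genes were above 0 in 22 of 27, with 5 higher and 1 lower, Ddit3, and a median of 0.20. Sel1l, of the degradation machinery of the endoplasmic reticulum, was higher at 0.96 by its median probe set but -0.26 at its brightest. The NEDD8 and cullin list had 2 of 23 higher and none lower, and none of the 10 measured Hox genes passed 1.5-fold on either side.

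The cells carried the marker genes of their label. All 16 fibroblast markers were above the filter on their mean signal, with a summed log2 signal of 15.93 in the control and 16.04 in the deleted array. Of 18 keratinocyte markers 6 were measured, 5 of them below 0 and 3 at least 1.5-fold lower: Krt14, Krt5 (8.17 to 7.14) and Sfn (6.58 to 5.80). Their summed log2 signal was 9.96 in the control and 9.43 in the deleted array, and 11 others, Krt1, Trp63 and Cdh1 among them, were under the filter. Of 18 skeletal muscle markers 3 were measured (summed log2 signal 8.42 and 8.07), with Myod1, Des and Ckm under the filter. Of 16 macrophage and leukocyte markers 5 were measured (9.85 and 9.55), with Ptprc and Adgre1 under it. Of 12 endothelial markers 3 were measured, and Pecam1 and Cdh5 were under it. The summed signal of each of the keratinocyte, muscle and leukocyte lists was below that of the fibroblast list and somewhat lower in the deleted array. Single members were well above the filter in the control, such as Krt14 at 8.43 and Lyz2 at 8.76. In each of these lists 1 measured member had a value above 0. The sums are over unequal numbers of genes. Adipocyte markers (8 of 12 measured) had 4 values above 0 and 4 below, with a median of -0.03. Their summed log2 signal was 13.55 in the control and 13.75 in the deleted array. At 1.5-fold 2 members were higher and none lower. Scd1, a desaturase of fatty acids, had agreeing probe sets (12.01 to 12.75 and 8.01 to 9.25), and the fatty acid transporter gene Cd36 stood at 0.63. Cebpa, at 10.11 and 9.57, lay furthest below 0, and Cidec and Lep were under the filter. Smooth muscle and pericyte markers (6 of 12 measured) summed to 10.02 and 10.01, and Schwann cell and melanocyte markers (4 of 12) to 9.34 and 9.48. The part of any of these cell types in the other differences was not tested.

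The in vivo pair shares no array with the in vitro pair, and its values for the same genes are given for comparison. Of the 81 genes with agreeing probe sets on the higher side, 45 were above 0 in vivo (50.4% of all such genes were), 8 at least 1.5-fold higher and 9 lower, where 7.64% and 8.73% of all genes with 2 or more probe sets passed in vivo. Of the 108 on the lower side, 73 were below 0 in vivo (49.6% of all such genes were), 4 reached 1.5-fold on the higher side and 14 on the lower. The shares at least 1.5-fold in the same direction were 9.88% of the higher and 13.0% of the lower set. The same rule of agreement in vivo found 148 of 3415 genes (4.33%) higher and 182 (5.33%) lower. Higher by it in both pairs were 5 genes, 6.17% of the in vitro and 3.38% of the in vivo set, and lower in both were 11, 10.2% and 6.04%.

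The 5 genes higher in both pairs were Rrm1, Rrm2, Mcm4, Tmpo, a nuclear lamina protein, and Flrt2, a membrane protein of cell guidance. Rrm2 had gene values of 0.62 in vitro and 1.54 in vivo, and Mcm4 of 0.66 and 1.36. Thus 3 of the 5 belong to DNA synthesis, although the whole proliferation list had a median of 0.03 in vitro and 0.99 in vivo. All 26 measured genes of that list were above 0 in vivo, so their sharing says little about the in vitro pair. The 11 genes lower in both included Tgfbi, a matrix protein that TGF-beta induces (-1.06 and -0.79), Mvd (-0.83 and -2.01), Pink1, the kinase that marks damaged mitochondria (-0.77 and -1.40), Hcfc1r1 (-0.86 and -2.12) and the lysozyme gene Lyz1 (-0.81 and -1.24).

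Opposite directions by agreeing probe sets were found for 5 of the 81 higher genes (6.17%), where 5.33% of all genes with several probe sets agreed on the lower side in vivo, and for 4 of the 108 lower genes (3.70%), where 4.33% agreed on the higher side. Plagl1, Clip3, Col4a5, Lpar4 and Ccn3 were higher in vitro and lower in vivo, and Krt14, Nhp2, Cdca8 and Clu were lower in vitro and higher in vivo. Ccn3, a matricellular protein of the CCN family, had a value of 0.75 in vitro and -2.82 in vivo. Krt14 had -1.55 and 5.01, and the keratinocyte list as a whole had medians of -0.58 and 3.11. The structural matrix list likewise leaned to the other side in vivo, with a median of -0.23 against 0.27 in vitro. Whether these pairs of values differ beyond array-to-array spread was not tested.

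**Figure D5:**
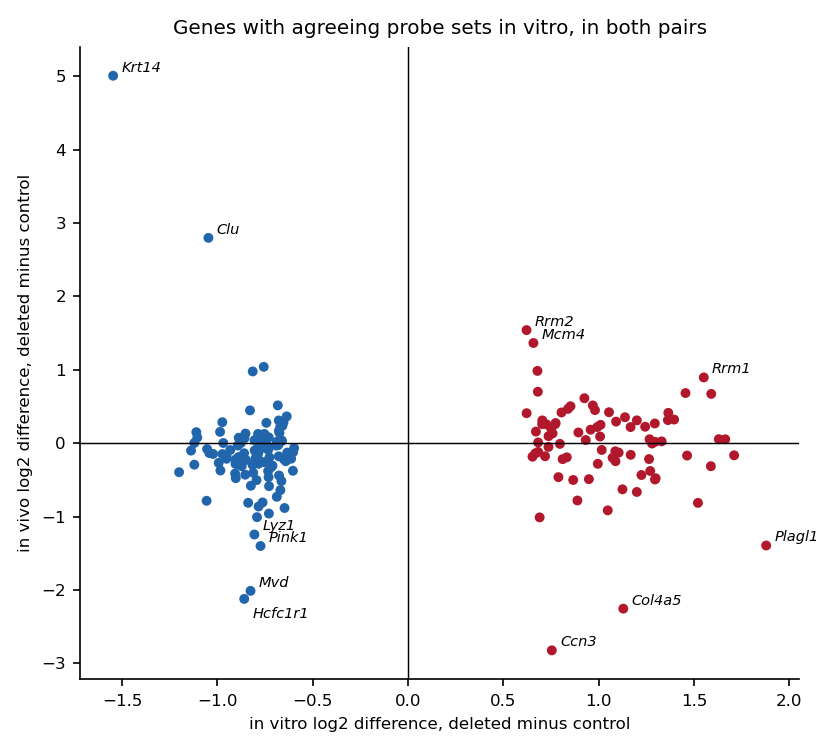
Log2 difference (deleted minus control) in vivo against that in vitro for the 81 higher (red) and 108 lower (blue) genes with agreeing probe sets in vitro, 1 point per gene. Most points lie near 0 on the in vivo axis, and Krt14 (5.01), Clu (2.80) and Ccn3 (-2.82) stand apart.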

How the data were processed

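Biotin-labelled cRNA was made from poly(A) RNA by way of cDNA primed with T7-(dT)24, per the labels' protocols. The authors deposited log2 expression values for 45101 probe sets on 4 arrays, 1 per group, between 2.87 and 13.79; the log scale was read from that range, and how they were background-corrected and normalized is not given in the sources used here. Columns had unequal distributions and were quantile normalized over the 4 arrays. Control probe sets (64), probe sets of several genes (932) and probe sets the annotation does not list (9160) were left out. Of 34945 single-gene probe sets 34741 matched RefSeq symbols. Groups came from the sample labels. The difference within a pair was described by counts, medians and ranges with no test, using Python 3.11.15, pandas 2.3.3, numpy 2.4.6 and scipy 1.17.1. The number of arrays limits the precision. The steps were tested on simulated data.

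The members, the 31 gene lists (748 symbols, of which 549 were measured) and the rules were chosen with earlier results of these data known. Named genes were Rbpj, the 15 per direction with the largest weakest probe set among genes with agreeing probe sets, the 5 per direction with the largest difference on 1 probe set, and up to 4 per list with the largest absolute value, skipping symbols with no informative name. Other genes, such as those of the pathway descriptions, the promoter matches and the overlaps, were named after their values were seen. Alternatives were the deposited values, normalization of the in vitro arrays alone, centring, other level filters (40th and 75th percentile, none), the brightest probe set, removal of _x_at and _s_at probe sets, a constant of 15.4, the 20th percentile on the linear scale, added ahead of the log, other fold thresholds, and removal of the trend on gene span.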

Additional observations from a re-analysis of the deposited data

Results flagged for a closer look

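For 9 genes (5 of 81 higher and 4 of 108 lower in vitro, or 6.17% and 3.70%) every probe set above the level filter lay at least 1.5-fold to one side in vitro and to the other side in vivo. These shares are near those over all genes with several probe sets, of which 5.33% agreed on the lower and 4.33% on the higher side in vivo. The in vitro minus the in vivo difference on the log2 scale was 3.27 for Plagl1, 1.67 for Clip3, 3.38 for Col4a5, 1.96 for Lpar4 and 3.58 for Ccn3. It was -6.55 for Krt14, -1.79 for Nhp2, -1.80 for Cdca8 and -3.84 for Clu. The medians of the 3 measured skeletal muscle markers also lay on opposite sides, and their in vitro minus in vivo difference was -2.83. With 1 array per group none of these differences between the pairs was tested.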

How the results depend on the processing

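Rbpj kept its direction under all 10 other settings. Its mean difference lay between -0.87 and -0.74 over 3 probe sets, was -1.22 over the 2 that pass a filter at the 75th percentile, and its brightest probe set gave -1.11. A level filter at the 75th percentile left 82 genes 2-fold higher and 68 lower and an endothelial list median of -0.10. Without a filter the Schwann cell and melanocyte median was -0.044 and Rbl1 -0.016. The brightest probe set of each gene gave 75 genes 2-fold higher and 125 lower, with Vegfd at 0.21, Ccnd2 at 0.047 and Sel1l at -0.26, and the share of 2-fold genes that were higher went from 56.7% to 37.5%. Without _x_at and _s_at probe sets 41 genes agreed on the lower side, and the higher share of agreeing genes went from 42.9% to 67.2%. The added constant left 66 genes 2-fold lower. Centring gave a higher share of 51.4% among agreeing genes. Removing the span trend left 45 agreeing and 43 2-fold lower genes, a higher share of 65.6% of agreeing genes, and a cytosolic ribosomal median of -0.0075, and it kept 67 of the 81 higher and 39 of the 108 lower genes. A threshold of 2-fold left 4 agreeing genes on each side, and 1.5-fold in place of 2-fold gave 647 higher and 920 lower. The cause of these shifts, beyond fewer genes or probe sets, was not tested. Of 152 named genes, the 3 scaling settings (deposited, in vitro alone, centred) reversed none and moved none by more than the SD over genes of 0.4405. Without a level filter 26 moved by more than that and 1 that was at least 1.5-fold changed sign. The brightest probe set moved 21 and reversed 3. A filter at the 75th percentile moved 10 and left 36 without a value, a filter at the 40th moved 10, and removing the span trend moved 9. No paired analysis was possible because each group has 1 array. Genes under the level filter were not read.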

Other observations

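Arrays of this kind carry control probe sets for the cre gene of bacteriophage P1, which standard protocols add as a hybridisation control, so that Cre transcripts of the infected cells would meet the same probes. The CreX 3' probe set read 13.44 in the deleted and 12.88 in the control array, and the CreX 5' probe set 13.16 and 12.53. Another pair of probe sets for the same gene differed less, with 13.32 and 13.05 at the 3' and 13.36 and 13.09 at the 5' end. The probe sets of the bacterial control BioDn were also higher in the deleted array, at 12.17 and 11.77 for the 3' and at 10.76 and 10.51 for the 5' end, while BioB 3' read 8.18 and 8.21. On the in vivo arrays the CreX 3' probe set read 12.45 in the deleted and 12.36 in the control array, and the label of the latter names no Cre. Whether Cre transcripts of the cells add to these signals was not tested, and whether the controls were added is not given in the sources used here.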
